A study of Mus musculus with 4 samples.

Results

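The genes of the DNA damage response and of DNA repair were followed in myogenic cells during muscle regeneration. The set was a list of 35 gene symbols, and its members were all probe sets that the array annotation assigned to exactly 1 gene symbol on that list. This gave 63 probe sets for 34 genes, out of 20393 probe sets for 12394 named genes. No probe set carried the symbol Fancd2 in the annotation used here. The cells were isolated with the antibody SM/C-2.6 from hind-limb muscle of C57BL/6 mice, 8 to 12 weeks old, whose muscle had been injured with cardiotoxin, a venom toxin that kills muscle fibres. They were collected 2, 3, 5 and 14 days later and went to RNA extraction without culture. Every group carries the injury, and uninjured muscle was not analysed here. Each day is 1 Affymetrix 430A array, the sources used here do not say how many animals it stands for, and the series holds 4 arrays in all.

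Cells repair DNA by several routes, which share some of their enzymes. Breaks and stalled forks that arise while DNA is copied are handled by homologous recombination, which needs a sister chromatid, and by damage tolerance, which lets replication pass a lesion. Mismatch repair corrects mispaired bases that replication leaves behind. Small base lesions, bulky adducts and broken ends are handled by base excision, nucleotide excision and end joining, which non-dividing cells use as well. Checkpoint kinases stop the cell cycle while damage is repaired. In injured muscle, satellite cells leave quiescence, divide as myoblasts, and then fuse into fibres or return to quiescence.

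With 1 array a day there was no test and no p-value. A gene was counted as higher or lower when its signal differed by 2-fold or more between 2 arrays, and the words rose and fell are used of such differences only. Signals are MAS5 signals in arbitrary units after scaling to a common trimmed mean. Signals under 43.0, the median of all scaled values, were set to that floor, which turns any ratio that involves it into a minimum ("at least"). Ratios within a gene also showed how far a single probe set can be off. For probe sets of 1 gene above the floor on both arrays, log2 ratios spread around the gene mean with an SD of 0.36 between days 2 and 3 and of 0.55 between days 2 and 14 over all genes. Over the members these SDs were 0.43 and 0.47, from 15 and 13 probe sets. They do not include the spread between animals or between hybridisations.

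Markers of the sorted cell type were present. All 11 measured myogenic markers were above the floor on days 3, 5 and 14, and 10 of 11 on day 2, when the satellite cell factor Pax7 read 35.7. The myogenic factor Myod1 read 2272, 1405, 500.2 and 935 on days 2, 3, 5 and 14. Markers of other cells moved over the same days. The summed signal of 16 macrophage markers was 267, 790, 1858 and 1685 on days 2, 3, 5 and 14, with 2, 7, 13 and 12 of them above the floor. For 14 fibro-adipogenic markers the sums were 2003, 4426, 14129 and 21530, with 4, 6, 8 and 10 of them above the floor. For 11 endothelial markers they were 135, 201, 320 and 845, with 0, 1, 3 and 6 above it, and Pecam1 was under it throughout. The leukocyte marker Ptprc read 59.7 on day 5 and 54.5 on day 14, and lay under the floor before. Lymphocyte, neutrophil and erythroid markers lay under the floor on every array. The Gapdh signal at the 3' end, divided by that at the 5' end to gauge how intact the RNA was, gave 2.17, 1.88, 2.87 and 2.84. The part of these shifts in the results below was not tested, and in RNA from a cell pool fewer cells of a kind and less RNA per cell cannot be told apart.

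DNA repair genes were mostly highest on day 2 and lower later. Of the 34 genes, 31 passed the floor on 1 array or more and 23 did so on all 4. Bard1, the partner of Brca1, Xpa, a damage-verifying factor of nucleotide excision repair, and Mgmt, the enzyme that removes alkyl groups from guanine, stayed under the floor on all 4 arrays. Of the 31, 16 spanned 2-fold or more over the course (51.6%, close to the 46.4% of all genes), and 13 of these had their highest signal on day 2, against 29.6% of all genes that spanned 2-fold. The exceptions were Fanca, highest on day 3, Xrcc5, highest on day 5, and Xpc, highest on day 14. Order alone, whatever the size of a step, was read for the 23 members above the floor throughout. Of these, 11 (47.8%) read below the array before at each of the 3 steps, against 17.8% of all genes above the floor throughout. No member read above the array before at each step, against 15.3%. Such steps could be small, as for Msh6, counted among the 11 with 1.03-fold from day 2 to day 3. Of the 31, 15 were not called at 2-fold in any comparison. Among these, Fancg, Ogg1, Neil3 and Ercc2 were above the floor on only 2 arrays. Their ratios to the other arrays are minima, so 2-fold could not be decided there.

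The whole course is given by day 14 against day 2. Of 31 measured members 10 were lower and 1 was higher, against 14.8% lower and 22.8% higher over all measured genes. The median log2 ratio was -0.71 for the members and 0.20 for all genes. The split of all calls depended on the array scaling: 60.7% were higher here and 23.5% with arrays scaled to a common median, under which 83.3% of the members and 36.0% of all genes were lower. The distance between both medians was less affected, at -0.91 here and between -0.86 and -1.01 under the alternatives.

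**Figure D1:**
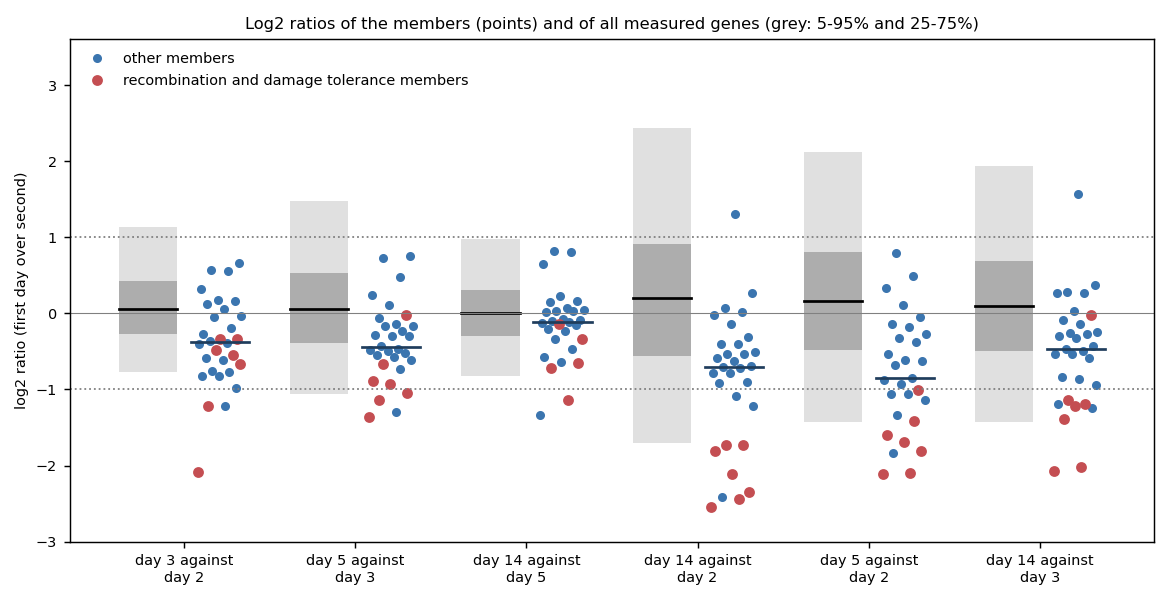
Log2 ratio of each member (points, 1 probe set a gene) beside all measured genes (grey bars from the 5th to the 95th and from the 25th to the 75th percentile, black line at the median) for 6 comparisons; dotted lines mark 2-fold. The recombination and damage tolerance members (red), with Chek1, lie lowest for day 14 against day 2, and the median of the members (blue line) is below that of all genes in every comparison.

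Most of the decrease in the members' median lay between days 2 and 5. Compared directly, the median was -0.85 for day 5 against day 2 (29 members) and -0.71 for day 14 against day 2 (31 members). For day 3 against day 2, 3 of 30 members were lower and none was higher, against 1.80% and 6.69% of all genes, and the members' median log2 ratio was -0.38 against 0.06. For day 5 against day 3, 4 of 30 were lower and none was higher, against 5.97% and 11.6%, with medians of -0.45 and 0.06. With the values as deposited this step had 1 lower and 1 higher member. For day 14 against day 5, 2 of 29 were lower and none was higher, against 3.10% and 4.81%, with medians of -0.11 and 0.01. With the median of a gene's probe sets this last step had 1 lower member, 3.45% against 2.84% of all genes. Neighbouring steps share an array and are not independent.

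Comparisons that skip a day had larger counts. For day 5 against day 2, 12 of 29 members were lower and none was higher, against 11.4% and 19.8% of all genes. The median log2 ratios were -0.85 for the members and 0.16 for all genes. For day 14 against day 3, 8 of 31 were lower and 1 was higher, against 11.5% and 16.3%, with medians of -0.47 and 0.09. With a floor of 100 the last comparison had 1 of 21 members lower (4.76%), under the 11.5% of all genes in that setting. The sample records of days 2 and 5 are numbered consecutively, and those of days 3 and 14 are too, in a separate run of numbers. Both of these comparisons stay within 1 run. Day 14 against day 2 and every step between neighbouring days cross the runs, so day and run cannot be told apart there.

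Of the repair routes, the listed recombination and damage tolerance members had the lowest median. Members and lists were chosen with earlier results of these data known, so the counts here are description only. Of the 7 measured for day 14 against day 2, Rad18 and Exo1 were under the floor on day 14 and were measured through day 2 alone. All 7 were lower on day 14 than on day 2, against 14.8% of all genes, with a median log2 ratio of -2.10. None was higher at any step. Genes of the same routes outside the member list had fewer lower calls. Of 11 other measured recombination and fork repair genes 2 were lower and 1 was higher (median -0.51). Of 8 other translesion and tolerance genes 1 was lower and 2 were higher (median 0.03). These counts are not like for like, because a gene less than 2-fold above the floor on day 2 cannot be called lower. That held for Rad51d (57.2), Eme1 (81.1), Recql4 (61.1), Wrn (25.4) and Hltf (79.3), while the 7 members read 151 to 427 on day 2. Brca1, the ubiquitin ligase subunit that directs breaks to recombination, read 275, 198, 103 and 47.0 on days 2, 3, 5 and 14. Each later array thus read below the one before it. Brca1 was 2.20-fold lower from day 5 to day 14 and 5.86-fold lower over the course, with its last value close to the floor. Brca2, which loads the recombinase onto single-stranded DNA, read 166, 132, 83.1 and 50.4, 3.30-fold lower over the course. Its steps were each under 2-fold, at 1.26-fold, 1.59-fold and 1.65-fold.

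Rad51ap1, a cofactor of the recombinase, read 427, 184, 99.4 and 78.9. It was 2.33-fold lower on day 3 than on day 2 and 5.41-fold lower over the course. Rad54l, a DNA translocase that drives strand invasion, read 272, 216, 84.2 and 53.4. Its main step came later, 2.57-fold from day 3 to day 5, and it was 5.10-fold lower over the course. Blm, the helicase mutated in Bloom syndrome that takes apart recombination intermediates, read 225, 154, 74.2 and 67.7. It fell 2.07-fold between day 3 and day 5 and had a log2 ratio of -0.13 after that.

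Exo1, a nuclease that resects DNA ends and also serves mismatch repair, read 151 and 94.9 on the first 2 arrays and was under the floor on the last 2. It was at least 2.21-fold lower on day 5 than on day 3. Rad18, the ubiquitin ligase that marks PCNA at stalled forks, had the steepest first step. It read 185 on day 2 and 43.4 on day 3, 4.26-fold lower, and was under the floor afterwards. The day 3 value is within 1 unit of the floor, so later differences could not be measured for Rad18. By these calls the steps differed between genes, a difference that was not tested: Rad18 and Rad51ap1 passed 2-fold between days 2 and 3, Rad54l, Blm and Exo1 between days 3 and 5, and Brca1 between days 5 and 14. Several of these calls ended under other settings: the first step of Rad51ap1 and the last of Brca1 with the median of a gene's probe sets, and the middle steps of Blm and Exo1 with values as deposited. Over the whole course Rad54l was not past 2-fold with the median of its probe sets (-0.78), nor were Rad18 (-0.89), Brca2 (-0.73) and Exo1 (-0.60) with a floor of 100, while Rad51ap1, Brca1 and Blm were past it under all 9 alternatives.

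**Figure D2:**
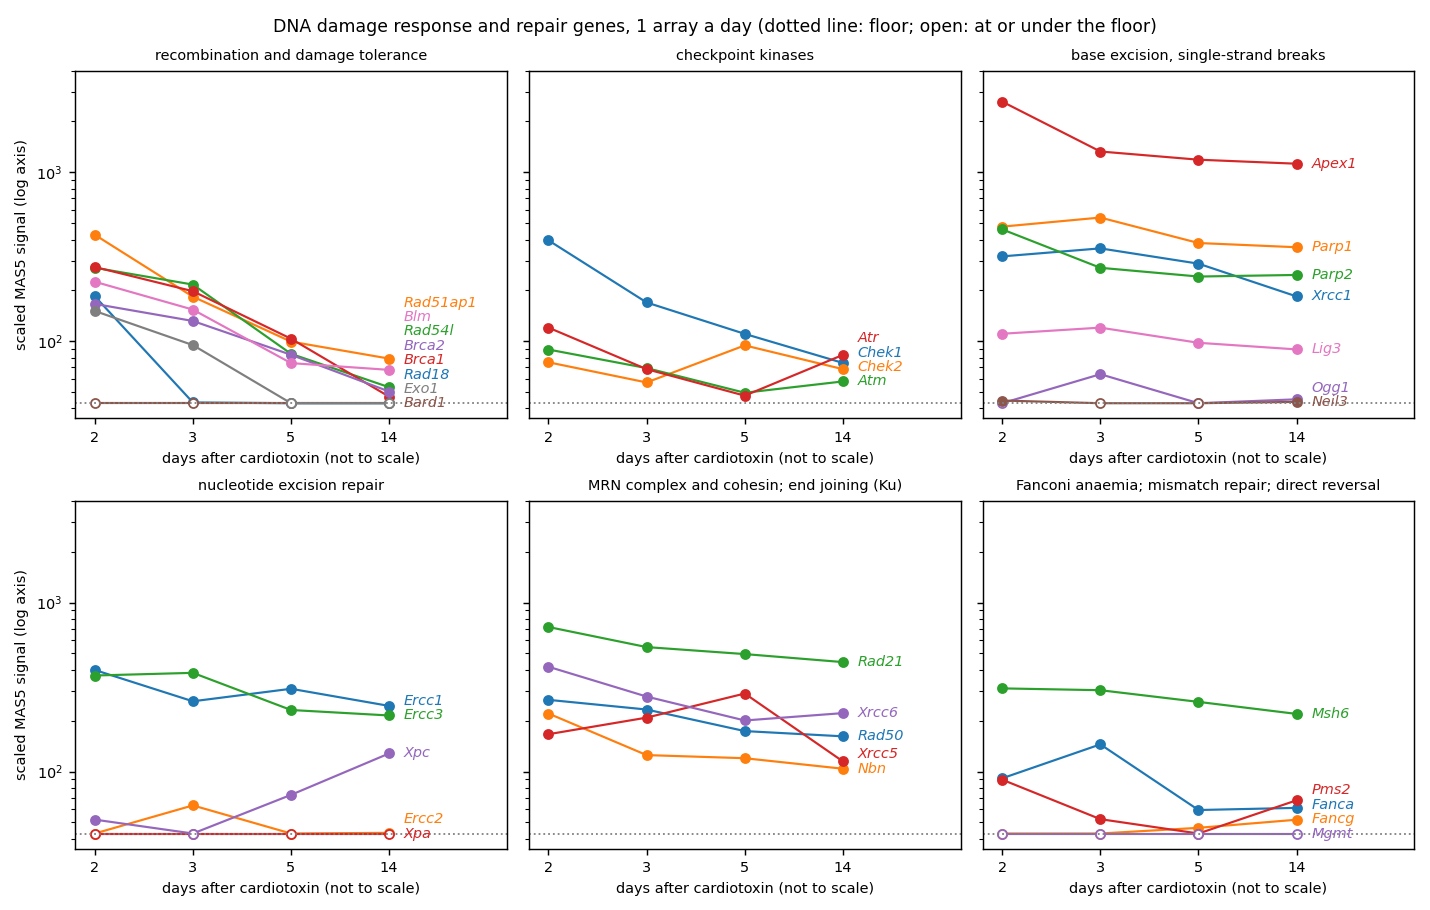
Scaled MAS5 signal (log axis, arbitrary units) of each member's probe set on days 2, 3, 5 and 14 after cardiotoxin, by repair route, with 1 array a day; the dotted line is the floor of 43.0 and open symbols lie at or under it. Signals of the recombination genes and of Chek1 run downward, Xpc runs upward to 128, and levels of different genes are not comparable because each has its own probes.

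The start regions of members with large decreases are printed here because they share a decrease from day 2 to day 14, though not its timing. RefSeq (GRCm38.p6) gave a promoter window, 250 bases before to 50 after the start site, for 28 of the 35 genes. Each window was searched on both strands for the E2F letters TTTCCCGC, TTTCGCGC, TTTGCCGC and TTTGGCGC, for the cell cycle element TTTGAA and for CCAAT, and these are in capitals. A further run, GGCGGGAA, which overlaps the E2F letters on the other strand, was added after the sequences were seen. The first 4 windows are those of the largest decreases for day 14 against day 2 among genes with a window, and Brca2 was added as the lower member whose window holds E2F letters. The windows are Brca1 at chr11:101551906-101552205, minus strand, Rad51ap1 at chr6:126939538-126939837, minus strand, Chek1 at chr9:36726609-36726908, minus strand, Rad54l at chr4:116123641-116123940, minus strand, and Brca2 at chr5:150522371-150522670, plus strand.
Brca1: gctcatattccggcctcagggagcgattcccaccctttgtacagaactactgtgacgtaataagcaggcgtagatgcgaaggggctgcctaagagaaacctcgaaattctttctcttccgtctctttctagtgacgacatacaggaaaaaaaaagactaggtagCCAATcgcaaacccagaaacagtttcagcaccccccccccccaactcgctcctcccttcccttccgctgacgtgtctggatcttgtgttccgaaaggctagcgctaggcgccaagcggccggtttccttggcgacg
Rad51ap1: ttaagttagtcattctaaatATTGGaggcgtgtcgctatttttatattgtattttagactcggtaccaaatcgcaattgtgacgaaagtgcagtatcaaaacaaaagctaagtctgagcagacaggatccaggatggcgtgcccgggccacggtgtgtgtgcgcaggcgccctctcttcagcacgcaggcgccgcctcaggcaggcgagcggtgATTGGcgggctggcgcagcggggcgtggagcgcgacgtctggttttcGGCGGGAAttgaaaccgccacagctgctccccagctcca
Chek1: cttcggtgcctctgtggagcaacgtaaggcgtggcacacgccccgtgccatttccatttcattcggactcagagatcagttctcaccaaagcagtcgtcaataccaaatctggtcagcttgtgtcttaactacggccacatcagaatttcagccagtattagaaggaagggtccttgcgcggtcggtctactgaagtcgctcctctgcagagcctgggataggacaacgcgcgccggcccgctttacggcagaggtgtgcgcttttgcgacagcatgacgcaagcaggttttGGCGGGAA
Rad54l: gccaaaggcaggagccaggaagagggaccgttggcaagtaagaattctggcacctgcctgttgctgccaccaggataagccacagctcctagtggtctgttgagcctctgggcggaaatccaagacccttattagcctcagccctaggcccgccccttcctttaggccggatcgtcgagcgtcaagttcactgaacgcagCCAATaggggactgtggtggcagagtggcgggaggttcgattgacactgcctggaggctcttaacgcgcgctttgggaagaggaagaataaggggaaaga
Brca2: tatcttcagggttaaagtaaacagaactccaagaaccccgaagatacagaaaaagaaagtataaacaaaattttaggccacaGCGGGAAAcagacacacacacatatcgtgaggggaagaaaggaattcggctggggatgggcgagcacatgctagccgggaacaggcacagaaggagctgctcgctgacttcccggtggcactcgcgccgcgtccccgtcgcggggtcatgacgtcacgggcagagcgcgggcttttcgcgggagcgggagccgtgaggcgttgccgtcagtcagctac

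Counted from 1 at the 5' end of the window, with the start site at position 251, the Brca1 window held CCAAT at position 165 and that of Rad54l at position 201. The Rad51ap1 window held CCAAT on the other strand at positions 21 and 215, and GGCGGGAA at position 262. The Chek1 window held GGCGGGAA alone, at position 293, and the Brca2 window E2F letters alone, at position 83. Over all members with a window, 6 of 28 held E2F letters (21.4%), against 2.61% of 27025 genes in the table and 4.07% of those on the array. These 6 were Bard1, Brca2, Fancg, Msh6, Chek2 and Xrcc6. Of the members lower on day 14 than on day 2, 1 of 8 with a window held E2F letters, and of the measured members not lower 4 of 17. CCAAT stood in 16 of 28 windows (57.1%), against 42.3% of genes on the array, and TTTGAA in 1 of 28, against 15.4%. GGCGGGAA stood in 3 of 28, those of Rad51ap1, Chek1 and Msh6, against 3.97%. A match describes the letters only.

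Among the checkpoint kinases, Chek1 fell and the other 3 did not over the whole course. Chek1, the kinase that slows S phase and mitosis when forks stall, read 396, 169.6, 111 and 74.4. Each later array read below the one before it. Chek1 was 2.33-fold lower at the first step and 5.32-fold lower over the course. Atr, the kinase that activates it, read 120.4, 68.3, 47.6 and 83.0, lowest on day 5. Atr was 2.53-fold lower on day 5 than on day 2 and differed by 1.45-fold between day 14 and day 2. Atm, the kinase activated by double-strand breaks, read 89.3, 69.4, 49.5 and 57.8 and did not reach 2-fold. Chek2, which Atm activates, read 75.05, 57.0, 94.5 and 68.3, with its highest value on day 5. Chek1 and Chek2, the effector kinases, thus ran differently, by a log2 ratio of -2.41 and of -0.13 over the course, a difference that could not be tested with 1 array a day. Without probe sets whose suffix marks shared sequence Chek1 gave -0.79, short of a call.

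Rad50, Nbn and Rad21, the members of the complex that senses broken ends and of cohesin, had smaller decreases over the course than the recombination members. Rad50, the ATPase that holds broken ends together, read 266, 233, 174 and 162, 1.64-fold lower over the course and short of a call. Nbn, the subunit that recruits Atm, read 221 on day 2 and then 125, 119.9 and 104, 2.12-fold lower over the course, with most of the difference between days 2 and 3; with 16 added in place of a floor its log2 ratio was -0.98. Rad21, the cohesin subunit that joins sister chromatids, read 717, 545, 496 and 445, a 1.61-fold difference. The nuclease subunit of the same break-sensing complex, Mre11a, was on the list of other repair genes. It read 460.4, 261, 92.5 and 52.8, 8.72-fold lower over the course. The nuclease subunit thus had a larger decrease than Nbn or Rad50 on these arrays.

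The Fanconi anaemia pathway, which unhooks crosslinked strands, had 2 measured members, neither past 2-fold over the course. Fanca, a subunit of its core ligase, read 91.2, 145, 59.2 and 60.9, so day 3 stood above the other arrays. It fell 2.45-fold from day 3 to day 5, though not with values as deposited, and had a log2 ratio of -0.58 for day 14 against day 2. Fancg, another core subunit, lay under the floor on days 2 and 3 and read 46.4 and 51.8 later. Its ratio over the course, at least 1.21-fold, is a minimum. In mismatch repair, Msh6, which recognises mispaired bases, read 311, 303, 258 and 219, a 1.42-fold difference over the course. Pms2, the partner that nicks the new strand, read 89.5 and 52.2, lay under the floor on day 5 and read 67.6 on day 14, at least 2.08-fold lower on day 5 than on day 2.

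The Ku heterodimer, which caps broken ends for joining, had subunits with different courses. Xrcc5, the larger subunit, read 166, 209, 289.6 and 115, highest on day 5 and lowest on day 14. It fell 2.52-fold from day 5 to day 14, the largest decrease of any member at that step. Xrcc6, the smaller subunit, read 417, 278, 200.5 and 222, and was 2.08-fold lower on day 5 than on day 2. On day 5 Xrcc5 had a log2 ratio of 0.80 to day 2 and Xrcc6 one of -1.06, each from 1 probe set.

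Base excision and single-strand break repair had 7 measured members, of which 1 was lower on day 14 than on day 2, a share of 14.3% and so close to the 14.8% of all genes. That was Apex1, the endonuclease that cuts at sites without a base, which read 2621, 1328, 1188 and 1124.5. Day 2 stood above the other 3 arrays, 2.33-fold above day 14, and the first step of 1.97-fold was just short of a call. Parp1, which senses strand breaks and adds poly-ADP-ribose, read 477, 540 on day 3, 381 and 360.1, a 1.32-fold difference over the course. That was its brightest probe set. Its other 2 gave log2 ratios of -1.19 and -1.26, both past 2-fold, so the share above depends on the probe set. Parp2, its smaller relative, read 459, 272, 242 and 247, 1.86-fold lower over the course. Xrcc1, the scaffold of this route, read 318, 355, 288 and 184, 1.73-fold lower, and its ligase partner Lig3 read 111, 120.3, 97.9 and 89.4.

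Both glycosylases among the members were near the floor. Ogg1, which removes oxidised guanine, read 63.8 on day 3 and at most 45.3 elsewhere. Neil3, a glycosylase of dividing cells, read 44.5 on day 2 and 43.7 on day 14 and lay under the floor between. No direction could be read for either at these signals.

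Nucleotide excision repair held the member that rose. Xpc, which recognises helix distortion and starts this route, read 51.9 on day 2, lay at 41.9, under the floor, on day 3, and read 72.8 on day 5 and 128 on day 14. Day 14 was the highest array, 2.47-fold above day 2 and at least 2.98-fold above day 3. The first ratio was not past 2-fold with a common median or quantile normalisation, and neither ratio was with a floor of 100 (log2 ratio 0.36 for both). The other measured members were not called in any comparison. For Ercc2 this is undecided, since it was under the floor on day 2 and its ratio to day 3 is a minimum, at least 1.47-fold. Ercc1, a nuclease subunit, read 399, 261, 309 and 245, Ercc3, a helicase of the repair and transcription factor TFIIH, 370.2, 384, 231 and 215, and Ercc2, the other TFIIH helicase, 63.0 on day 3 and 43.4 at most elsewhere. The median log2 ratio of the group for day 14 against day 2 was -0.35, against -2.10 for recombination and damage tolerance. It is the median of 4 members. Ercc1 had -0.71 and Ercc3 -0.79, beside a median of -0.71 for all members. Ercc2, under the floor on day 2, and Xpc, at 51.9, could not have been called lower from those levels.

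Several members had more than 1 probe set, and these differed. For day 14 against day 2, 10 members had 2 or more measured probe sets. Those of Rad51ap1 gave log2 ratios of -2.44 and -2.56 and those of Apex1 from -1.22 to -1.78, all past 2-fold. Chek1 gave -2.41 from the probe set that represents it and -0.79 as a bound from a dimmer one, and Rad18, Rad54l and Exo1 showed the same order, with dimmer probe sets at bounds from -0.47 to -0.78. A second Brca1 probe set read 45.3 on day 14, close to the floor, and 10.5 on day 2, under it, and gave 0.08. Parp1 was not lower by its brightest probe set (-0.41), while its other 2 gave -1.19 and -1.26. Rad21 had probe sets of both signs, from -0.72 to 0.61, so its direction depended on the probe set. Its 2 brighter ones gave -0.69 and -0.72. The one at 0.61 was dim, at 47.7 on day 2, close to the floor, and 72.6 on day 14.

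**Figure D3:**
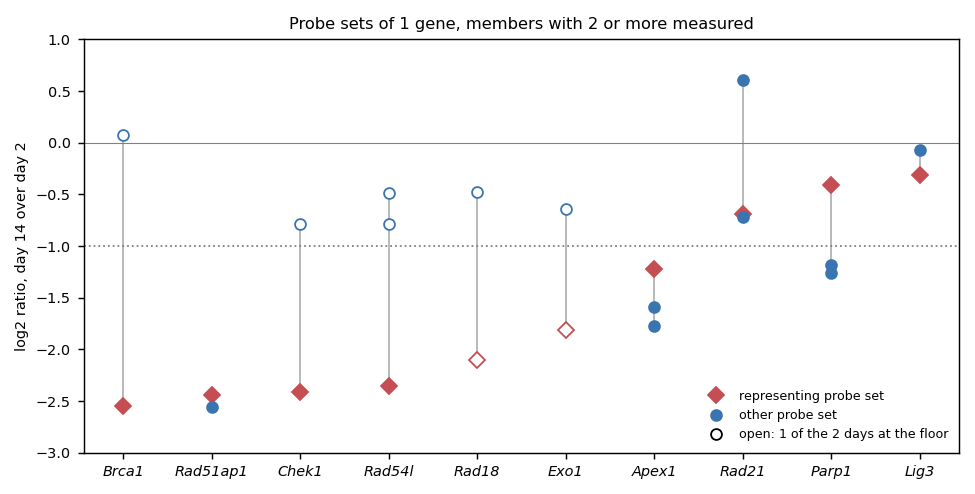
Log2 ratio of day 14 over day 2 for every measured probe set of the 10 members with 2 or more; diamonds mark the probe set that represents the gene and open symbols have 1 day at the floor, so they are bounds. The dotted line marks a 2-fold decrease. Both filled Rad51ap1 symbols and all 3 Apex1 symbols lie below it, while the Rad21 symbols lie on both sides of 0.

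The other genes of DNA repair were drawn from lists of further recombination, checkpoint, Fanconi, mismatch, end joining, base excision, nucleotide excision, translesion and single-strand binding genes. Of their 120 symbols 87 were on the array. For day 14 against day 2, 20 of 75 measured genes were lower (26.7%) and 6 were higher (8.00%), against 14.8% and 22.8% of all genes, with a median log2 ratio of -0.35 against 0.20. All 3 subunits of replication protein A, which coats single-stranded DNA, were lower: Rpa2 went from 608 to 109.9 (5.53-fold), Rpa1 was 2.57-fold and Rpa3 2.16-fold lower. Fen1, the flap nuclease of replication and long-patch base excision, went from 3277 on day 2 to 281 on day 14, 11.7-fold lower. Ung, which removes uracil, was 5.69-fold and Lig1, the replication ligase, 3.58-fold lower.

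Checkpoint and signalling genes had 6 of 15 lower (40%) and none higher, against 14.8% and 22.8% of all genes. Among the lower were the phosphatase Cdc25a (4.82-fold), the fork protein Tipin (3.53-fold) and Brcc3 (3.24-fold). The other nucleotide excision genes had 3 of 13 lower (23.1%), Rad23b (3.72-fold), Gtf2h4 (3.20-fold) and Cdk7 (2.13-fold). The 1 higher gene (7.69%) was Ercc5 (2.44-fold), the nuclease that cuts beside the lesion, which read 53.1 on day 2, near the floor. Further genes rose over the course in other routes. Prkdc, the kinase recruited by Ku, went from 49.4 to 129.9 (2.63-fold), Parp3 was 3.12-fold higher, Rev3l, the catalytic subunit of a translesion polymerase, 2.38-fold, and the helicase Wrn at least 2.56-fold. On day 2 Prkdc was near the floor and Wrn under it.

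Genes of DNA replication and of division were lower over the same days. Of 32 measured S phase genes all 32 were lower on day 14 than on day 2 (median log2 ratio -2.27), and of 24 genes of G2 and mitosis 21 (median -2.42). Pcna, the sliding clamp that Rad18 modifies, read 5929, 4789, 2700.3 and 2524, and the proliferation marker Mki67 read 1720, 1631, 725 and 737. For day 3 against day 2, the S phase genes had 5 of 32 lower and a median of -0.45, and for day 5 against day 3, 20 of 31 lower and -1.09. The recombination and damage tolerance members had medians of -0.55 and -0.93 at these steps. The part of these shifts in the decrease of the repair genes was not tested.

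**Figure D4:**
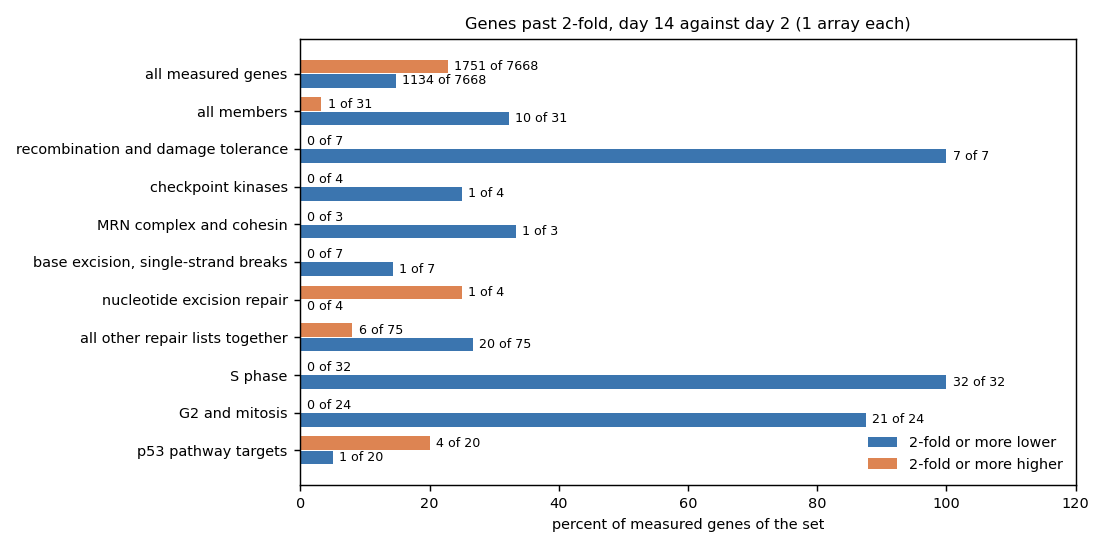
Percent of measured genes that were 2-fold or more lower (blue) or higher (orange) on day 14 than on day 2, for all genes, the members, their routes with 3 or more measured members, and other lists, with counts beside the bars and 1 array on each day. All 7 recombination and damage tolerance members and all 32 S phase genes were lower, while nucleotide excision had 1 of 4 higher and none lower. Of these 4, Ercc2 and Xpc were too dim on day 2 to be called lower.

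Targets of p53, the transcription factor that DNA damage activates, did not follow the repair genes. No probe set carried the symbol Trp53 alone in the annotation used here. Of 20 measured targets, 4 were higher and 1 was lower on day 14 than on day 2, against 22.8% and 14.8% of all genes. Both shares were below those of all genes, so the targets as a set had no excess of 2-fold increases. Their median log2 ratio was 0.63, against 0.20 for all genes and -0.71 for the members. Btg2, an antiproliferative gene that is also an immediate early gene, went from 43.9 to 3134 (71.5-fold), Trp53inp1 was at least 10.2-fold and Gadd45a, a growth arrest gene, at least 7.67-fold higher. Cdkn1a, which encodes the cell cycle inhibitor p21, read 2363, 3751, 1440.1 and 2886, highest on day 3 and lowest on day 5. Mdm2, the ligase that degrades p53, read 212, 269, 232 and 215. Its highest and lowest arrays differed by less than 2-fold. Aen, a nuclease, was 2.56-fold lower on day 14 than on day 2.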

How the data were processed

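RNA of sorted myogenic cells was hybridised to Affymetrix mouse 430A arrays, 1 per day. The authors' deposited values are signal intensities per probe set, made with MAS5 per the submitters' processing notes; its version and settings are not given in the sources read. MAS5 subtracts mismatch probes, so dim values are unstable. Precision is limited by the number of arrays. The column medians as deposited were 29.6, 36.8, 53.5 and 54.1 on days 2, 3, 5 and 14.

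Each array was scaled to a common 2% trimmed mean (factors 0.997, 1.13, 0.917 and 0.976), set to a floor of 43.0, the pooled median, and log2 was taken. Genes under the floor on both days counted as not measured. Of 22690 probe sets, 20393 had 1 gene symbol in the platform annotation, 691 with several were not used, and 1606 had no name. Each gene was represented by its brightest probe set (mean log2 signal). Calls were made at 2-fold across all genes, for 6 comparisons, with Python 3.11.15 and pandas 2.3.3, and the calling was tested on simulated data. The simulation had less noise than the spread between probe sets of 1 gene. It changed only genes well above the floor, by more than 2-fold, so it does not gauge calls near the floor or near 2-fold. There are no replicates and no tests. Named were all members, up to 3 called genes of each other list and direction, and fixed markers. Members and lists were chosen with earlier results of these data known. Another 9 settings were tried.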

Additional observations from a re-analysis of the deposited data

How the results depend on the processing

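The members' median log2 ratio was below 0 for all 6 comparisons under all 9 alternatives, ranging from -1.55 to -0.67 for day 14 against day 2. Under the alternatives 81 counts stayed within 1.5 times the value in the report and 36 did not. Comparisons are written as 14 v 2 for day 14 against day 2. With values as deposited, lower members numbered 6 for 3 v 2, 1 for 5 v 3 (1 higher) and 5 for 14 v 3. With a common median 12 for 3 v 2, 25 for 14 v 2 (0 higher, also with quantile normalisation) and 21 for 5 v 2, and 23 members were highest on day 2. With a floor of 100, 1 for 5 v 3, 1 for 14 v 5, 7 for 5 v 2 and 1 for 14 v 3 (4.76% of members, under the 11.5% of all genes), 0 higher for 14 v 2 and 14 v 3, and 8 highest on day 2. With a floor of 20, higher members numbered 1 for 3 v 2, 1 for 5 v 3, 3 for 14 v 5, 3 for 14 v 2, 1 for 5 v 2 and 2 for 14 v 3. With 16 added and no floor, 1 was lower for 14 v 5, and 1 and 2 were higher for 3 v 2 and 14 v 2. With the median of a gene's probe sets, 1 was lower for 3 v 2 and 1 for 14 v 5. At 1.5-fold, 11, 9, 5 and 18 were lower for 3 v 2, 5 v 3, 14 v 5 and 14 v 2, and 1, 2, 3 and 1 higher for 3 v 2, 5 v 3, 14 v 5 and 5 v 2. The cause of these shifts was not tested. The share of higher calls over all genes, in the report's setting and with a common median, was 78.8% and 20.9% for 3 v 2, 66.1% and 41.0% for 5 v 3, 60.8% and 48.3% for 14 v 5, 63.4% and 23.1% for 5 v 2 and 58.6% and 35.1% for 14 v 3. As deposited it was 52.6%, 87.4%, 50.5% and 72.5% for 3 v 2, 5 v 3, 14 v 5 and 14 v 3, and 52.9% with quantile normalisation for 5 v 2. A common median moved the median of all genes to -0.57 for 14 v 2. Signal near the floor limits Rad18, Exo1, Brca1, Brca2, Ogg1 and Neil3. Chek1 was not lower (-0.79) without probe sets of the suffixes _s_at and _x_at. No paired analysis was possible because each day has 1 array.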
